A study of Saccharomyces cerevisiae with 6 samples.

Results

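The genes described here are 10 cell wall mannoprotein genes of budding yeast, Saccharomyces cerevisiae, taken by name (CWP1, CWP2, CCW12, CCW14, SED1, TIP1, PIR1, PIR3, CIS3 and HSP150) from the 5795 gene rows of the deposited table, and all 10 were found. The set was chosen by its levels and changes in these same 6 libraries, so both are given for the 10 genes as a description, without p-values. Strand-specific sequencing of total RNA depleted of ribosomal RNA was made for 3 groups of 2 biological replicates. Strains deleted for GAT1 were grown with glutamine in one group and with proline in another, and a strain deleted for DAL80 was grown with glutamine. Every group carries a deletion of a GATA-family transcription factor of nitrogen regulation, Gat1 or Dal80. No wild-type library was analysed here, and no source used here gives the strain background or the rest of the medium. The RNA came from whole cultures, in which fewer cells of a kind and less RNA per cell cannot be told apart.

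The yeast wall is a network of beta-glucan and some chitin, covered by a layer of mannoproteins. These proteins pass through the secretory pathway, where they receive mannose chains, and are then bound to the glucan. Cwp1, Cwp2, Ccw12, Ccw14, Sed1 and Tip1 belong to the class that is made with a glycosylphosphatidylinositol (GPI) anchor, a lipid-sugar tail whose remnant is joined to glucan. Pir1, Pir3, Cis3 (also called Pir4) and Hsp150 (also called Pir2) belong to the PIR class, named for proteins with internal repeats, which are linked to glucan without such an anchor. Several of these genes are known to be transcribed in particular stages of the cell cycle, and that timing helps to set where in the wall the protein ends up.

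The 10 genes lie on 5 chromosomes of build R64, each is a single uninterrupted coding sequence, and their positions in the deposited table matched RefSeq R64 in every case. CWP2 (YKL096W-A, chromosome 11, 259253 to 259531, plus strand) is followed on the same strand, after 1600 bases, by CWP1 (YKL096W, 261132 to 261851). PIR1 (YKL164C, chromosome 11, 141794 to 142819, minus strand) and PIR3 (YKL163W, 144401 to 145378, plus strand) point away from each other across 1581 bases. HSP150 (YJL159W, chromosome 10, 120449 to 121690, plus strand) and CIS3 (YJL158C, 122265 to 122948, minus strand) point towards each other with 574 bases between them. The remaining members stand alone: TIP1 (YBR067C, chromosome 2, 372103 to 372735, minus strand), SED1 (YDR077W, chromosome 4, 600793 to 601809, plus strand), CCW12 (YLR110C, chromosome 12, 369697 to 370098, minus strand) and CCW14 (YLR390W-A, chromosome 12, 903724 to 904440, plus strand). No other gene of the table or of RefSeq overlapped any of them. The sources used here do not say how reads that match several places were treated, so the share of unique sequence was computed. All 50-base windows of CWP1, CWP2, CCW12, CCW14 and TIP1 were found once in the genome. PIR1 and PIR3 each had 60 windows, of 977 and 929, that also lay outside the gene, and CIS3 and HSP150 each had 16, of 635 and 1193. SED1 had repeats within itself but none elsewhere.

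Upstream sequence was read from RefSeq R64 for the 300 bases that lie 400 to 101 bases before each start codon, a window that holds promoter sequence. Shown here are the members that hold a site of the type bound by Rlm1, the transcription factor at the end of the cell wall integrity pathway, and, for contrast, TIP1, which holds none of the motifs searched. Motifs were searched in the windows of 9 members, all but CWP2. Sequences are written 5′ to 3′ on the strand of the gene, and capitals mark any of the 7 motifs searched.
CWP1 (chr11:260732-261031, plus strand): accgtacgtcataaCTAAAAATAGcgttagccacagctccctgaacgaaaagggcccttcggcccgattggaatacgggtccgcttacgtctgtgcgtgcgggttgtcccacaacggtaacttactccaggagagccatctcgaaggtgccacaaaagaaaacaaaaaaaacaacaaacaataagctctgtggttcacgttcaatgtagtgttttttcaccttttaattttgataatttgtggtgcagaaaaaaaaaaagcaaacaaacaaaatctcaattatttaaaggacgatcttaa
CCW14 (chr12:903324-903623, plus strand): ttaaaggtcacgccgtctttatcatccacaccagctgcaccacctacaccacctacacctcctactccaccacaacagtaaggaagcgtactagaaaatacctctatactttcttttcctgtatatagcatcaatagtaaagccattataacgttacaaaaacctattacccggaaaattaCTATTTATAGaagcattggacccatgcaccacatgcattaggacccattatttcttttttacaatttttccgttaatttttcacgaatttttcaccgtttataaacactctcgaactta
PIR3 (chr11:144001-144300, plus strand): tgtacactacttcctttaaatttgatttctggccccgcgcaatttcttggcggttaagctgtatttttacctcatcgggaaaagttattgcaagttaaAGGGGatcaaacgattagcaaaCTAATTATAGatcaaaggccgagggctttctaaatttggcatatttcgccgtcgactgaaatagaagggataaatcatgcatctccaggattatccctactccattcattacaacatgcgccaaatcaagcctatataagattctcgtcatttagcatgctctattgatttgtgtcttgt
HSP150 (chr10:120049-120348, plus strand): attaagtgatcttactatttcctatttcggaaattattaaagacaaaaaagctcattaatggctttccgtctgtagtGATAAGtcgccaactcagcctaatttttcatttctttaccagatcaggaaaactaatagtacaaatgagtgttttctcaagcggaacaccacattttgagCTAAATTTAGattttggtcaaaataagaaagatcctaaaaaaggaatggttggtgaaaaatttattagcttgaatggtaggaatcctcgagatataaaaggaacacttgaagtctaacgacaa
TIP1 (chr2:372836-373135, minus strand): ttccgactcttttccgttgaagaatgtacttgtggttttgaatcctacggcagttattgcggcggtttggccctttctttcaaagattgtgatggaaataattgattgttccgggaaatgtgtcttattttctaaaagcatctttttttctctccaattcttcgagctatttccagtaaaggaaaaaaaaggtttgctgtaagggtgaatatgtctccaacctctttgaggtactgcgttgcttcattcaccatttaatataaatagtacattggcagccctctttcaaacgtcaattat

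The Rlm1-type motif, CTA and TAG with any 4 bases between them, was present in the windows of CWP1, CCW14, PIR3 and HSP150, 4 of the 9 members, and in 5.52% of 5765 gene windows of the same length. The GATA factor core GATAAG was present in HSP150, against 14.0% of all windows. The SBF-type motif CNCGAAA, named for a G1 transcription factor, was present in CCW12, against 15.9%. The stress element AGGGG was present in SED1, PIR3 and CIS3, against 23.9%. The heat shock core GAANNTTC, the Upc2 core TCGTATA and the MBF motif ACGCGT were present in none of the 9, against 12.4%, 4.58% and 4.06%. All motifs were searched on both strands, and a match is a run of letters, not a measured binding site. TIP1 and PIR1 held none of the 7 in this window. Part of the CCW14 window lies in the coding sequence of the gene before it, ECM19.

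The libraries held 17009715 to 34718641 recovered reads over 6192 features. GAT1 had 1603 and 1062 reads in dal80Δ but 2 to 3 in each gat1Δ library. DAL80 had 1 and 0 reads in dal80Δ and 195 and 497 in gat1Δ proline, but only 2 and 1 in gat1Δ glutamine, so its reads do not show its deletion in that medium. Levels below are densities, that is reads per base of the gene after the authors had brought every library to nearly the same total over genes. Density can be compared between genes as well as between libraries. Between libraries the comparison rests on this scaling, and some changes are also given after another scaling. Fold changes of gene means are ratios of mean densities, and log2 fold changes, with their standard errors (SE), are those of density plus a pseudocount of 0.0229. Values of the replicates are given in the order 1 and 2.

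**Figure D1:**
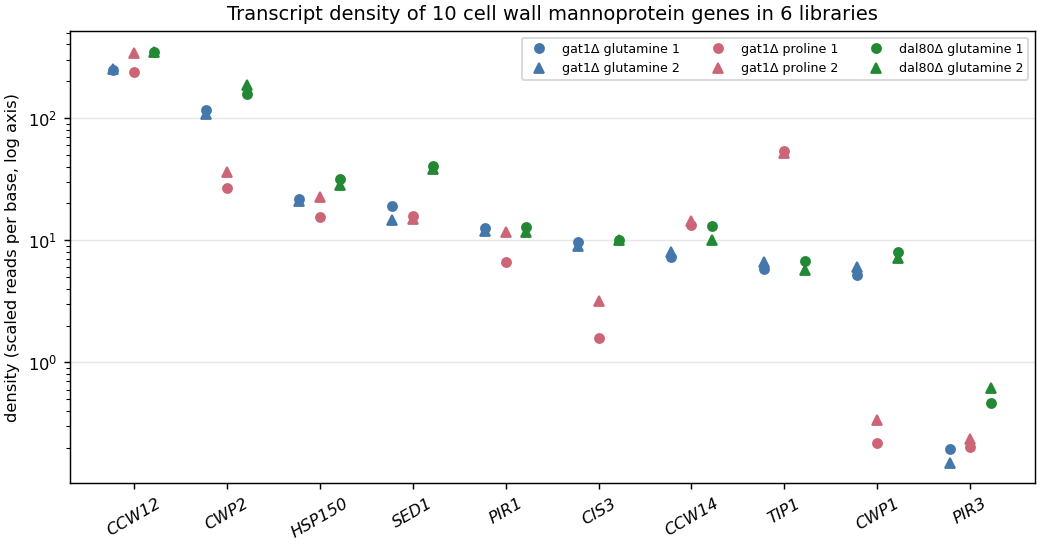
Density in scaled reads per base (log axis) of the 10 genes in each of the 6 libraries, ordered by their level in gat1Δ glutamine; circles are replicate 1, triangles replicate 2, and colours the groups. CWP1, CIS3 and CWP2 are lowest in the proline libraries and TIP1 is highest there, while SED1 and PIR3 are highest in dal80Δ.

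In gat1Δ glutamine the members spanned from 248 ± 3.02 scaled reads per base for CCW12 to 0.174 ± 0.0323 for PIR3 (SD, n = 2). The order of density was CCW12, CWP2, HSP150, SED1, PIR1, CIS3, CCW14, TIP1, CWP1 and PIR3. The replicates of TIP1 and CWP1 overlapped, and every other neighbouring pair stood apart. CCW12 ranked 2nd in density among all 5795 genes in both libraries, while PIR3 ranked 3495 and 3729. In gat1Δ proline the order was CCW12, TIP1, CWP2, HSP150, SED1, CCW14, PIR1, CIS3, CWP1 and PIR3, with overlap between HSP150 and SED1 and between CWP1 and PIR3. TIP1 thus stood at place 2 where it had been at place 8. In dal80Δ glutamine the order was CCW12, CWP2, SED1, HSP150, PIR1, CCW14, CIS3, CWP1, TIP1 and PIR3, with overlap between PIR1 and CCW14.

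The summed scaled reads of the 10 genes came to 1.75% ± 0.0344 of all gene reads in gat1Δ cells with glutamine, 1.85% ± 0.349 with proline and 2.56% ± 0.0223 in dal80Δ (SD, n = 2). The mean total was thus close in both media while its make-up differed. The proline libraries, at 1.60% and 2.10%, lay on either side of the gat1Δ glutamine libraries, at 1.78% and 1.73%. CCW12 gave 55.5% and 57.5% of the summed density in gat1Δ glutamine, 63.8% and 68.8% in proline, and 55.3% and 53.9% in dal80Δ. The share of CWP2 was 26.1% and 24.7% in gat1Δ glutamine, 7.23% and 7.27% in proline, and 24.97% and 28.8% in dal80Δ. TIP1 held 1.30% and 1.54% in gat1Δ glutamine, 14.6% and 10.4% in proline, and 1.07% and 0.886% in dal80Δ. Shares within a library do not move with the scaling between libraries.

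**Figure D2:**
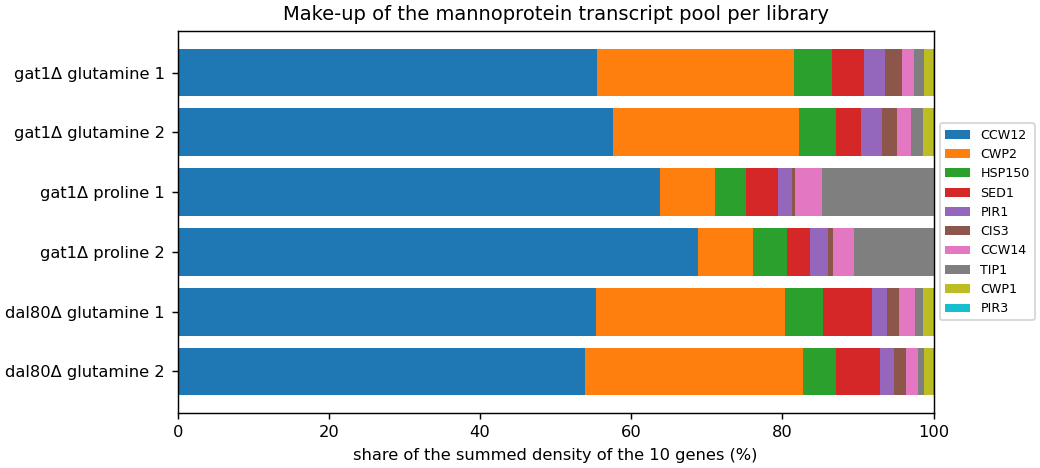
Share (%) of each gene in the summed density of the 10 genes, 1 bar per library. CCW12 is the largest part of every bar, and the CWP2 part shrinks from 26.1% and 24.7% in gat1Δ glutamine to 7.23% and 7.27% in proline while the TIP1 part grows to 14.6% and 10.4%.

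The first comparison set proline against glutamine in gat1Δ cells, and the mannoprotein genes went different ways. CWP1, CWP2 and CIS3 stood lower in proline, TIP1 and CCW14 stood higher, and the remaining 5 differed less. In the fit across all 5594 genes tested, 3 of the 10 passed an adjusted p of 0.05 as lower and 2 as higher, where 15.1% of all genes passed as lower and 56.5% as higher. The set was chosen with this comparison known, so nothing is read from these counts. The median log2 fold change of the 10 was -0.16, and that of all genes tested was 0.50. Because the median gene lay above 0, the densities were also rescaled by TMM factors (a trimmed mean of gene ratios, built on the assumption that most genes do not change), which put the median gene at 0.06 and the median of the 10 at -0.66. After that rescaling 6 of the 10 passed as lower and 1 as higher, against 29.8% and 33.8% of all genes.

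Among the GPI class, CWP1 differed most. Cwp1 is a linker-type wall protein known from the birth scar, the ring left on a daughter cell. CWP1 stood at 5.19 and 5.99 scaled reads per base in gat1Δ glutamine, 0.221 and 0.335 in proline, and 8.04 and 7.10 in dal80Δ. The proline libraries were far below all others, resting on 159 and 394 reads against 4269 and 7751 in gat1Δ glutamine. Its mean density was 20.1-fold lower in proline, a log2 fold change of -4.24 ± 0.19 (SE), the 2nd lowest of all genes tested. The upstream sequence of CWP1 is the first printed above, with its Rlm1-type match CTAAAAATAG.

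CWP2, which codes for a small and abundant wall protein, stood at 116 and 107 in gat1Δ glutamine, 26.8 and 36.1 in proline, and 157 and 186 in dal80Δ, in scaled reads per base. Its mean density was 3.55-fold lower in proline (log2 -1.84 ± 0.19), with no overlap. CWP1 and CWP2, neighbours on the chromosome, were thus both lower, but unequally. The density ratio of CWP2 to CWP1 was 22.3 and 17.9 in gat1Δ glutamine, 121 and 108 in proline, and 19.5 and 26.1 in dal80Δ. The gene that follows CWP1, YJU2, a splicing factor gene, rose in proline (log2 1.12 ± 0.17, limma adjusted p = 0.000444), as did 56.5% of all genes. Its value was 0.71 after TMM rescaling.

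TIP1 went the other way. Tip1 is a member of a family of serine- and alanine-rich wall proteins known to be induced by cold shock and low oxygen. TIP1 stood at 5.77 and 6.68 scaled reads per base in gat1Δ glutamine, 54.1 and 51.5 in proline, and 6.74 and 5.71 in dal80Δ. Both proline libraries lay far above the 4 glutamine libraries, which overlapped across the strains. The mean density was 8.47-fold higher in proline (log2 3.08 ± 0.15), place 82 from the top of 5594 genes. The ratio of TIP1 to CWP1 density within a library was 1.11 and 1.12 in gat1Δ glutamine, 245 and 154 in proline, and 0.839 and 0.804 in dal80Δ. The genes on either side of TIP1 were NRG2, a repressor gene, which rose (log2 1.27 ± 0.18, limma adjusted p = 0.000302), and BAP2, an amino acid permease gene, which fell (log2 -1.07 ± 0.28, limma adjusted p = 0.00695). After TMM rescaling the values were 0.79 for NRG2 and -1.57 for BAP2.

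CCW14 codes for a wall protein of the inner layer. It stood at 7.27 and 8.02 in gat1Δ glutamine, 13.2 and 14.2 in proline, and 13.1 and 10.1 in dal80Δ, in scaled reads per base. It was 1.80-fold higher in proline (log2 0.84 ± 0.16), where the median of all genes tested was 0.50. The value shrank to 0.34 after TMM rescaling, and the call ended. CCW12, needed for a stable wall in growing cells and buds, stood at 246 and 250 in gat1Δ glutamine, 236 and 342 in proline, and 348 and 347 in dal80Δ. The proline libraries fell on either side of the gat1Δ glutamine libraries (log2 0.20 ± 0.20, and -0.31 after TMM rescaling). Without proline replicate 1 the value was 0.46, and without proline replicate 2 it was -0.068. SED1, a major structural protein gene of stationary cells, stood at 19.0 and 14.6 in gat1Δ glutamine and at 15.7 and 15.0 in gat1Δ proline. These overlapped (log2 -0.11 ± 0.16), and TMM rescaling moved the value to -0.62.

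Among the PIR class, CIS3 stood apart. It was at 9.73 and 8.94 scaled reads per base in gat1Δ glutamine, 1.59 and 3.21 in proline, and 9.98 and 10.1 in dal80Δ. Its mean density was 3.89-fold lower in proline (log2 -2.04 ± 0.27), a wider gap than the 2.02-fold difference between the proline replicates. HSP150, a secreted and heat-inducible member, stood at 21.8 and 21.0 in gat1Δ glutamine and at 15.5 and 22.4 in gat1Δ proline, which overlapped (log2 -0.20 ± 0.19). The convergent pair therefore did not move alike: the density ratio of HSP150 to CIS3 was 2.24 and 2.35 in gat1Δ glutamine, 9.78 and 6.99 in proline, and 3.20 and 2.81 in dal80Δ.

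PIR1 stood at 12.6 and 11.9 scaled reads per base in gat1Δ glutamine and at 6.68 and 11.7 in gat1Δ proline (log2 -0.47 ± 0.23). Both proline libraries were lower, replicate 2 by a small margin, and the proline replicates differed 1.74-fold. The density of PIR3, which had the lowest mean density of the set in every group, was 0.197 and 0.151 in gat1Δ glutamine and 0.204 and 0.237 in gat1Δ proline (log2 0.31 ± 0.18, but -0.14 after TMM rescaling). PIR1 exceeded its divergent neighbour PIR3 in density 64.01- and 78.7-fold in gat1Δ glutamine, 32.7- and 49.2-fold in proline, and 27.4- and 19.0-fold in dal80Δ. Each of these genes held 60 windows also found elsewhere. How reads from such windows were treated is not stated, so the low PIR3 level and these ratios may depend on it. After TMM rescaling the values were -0.98 for PIR1 and -0.70 for HSP150. As deposited, they were -0.87 and -0.47 without proline replicate 2, but -0.071 and 0.065 without proline replicate 1. All members but SED1 and TIP1 were lower in proline replicate 1 than in replicate 2, by 1.08- to 2.02-fold. Upstream of HSP150 lies YJL160C, named PIR5 in RefSeq, a further gene of the PIR family. It rose from 43.9 ± 2.30 to 793 ± 568 scaled reads in proline (SD, n = 2), a log2 fold change of 3.47 ± 0.40 (limma adjusted p = 8.24e-05), with a wide gap between the proline libraries, and the genes of the family thus differed in direction.

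**Figure D3:**
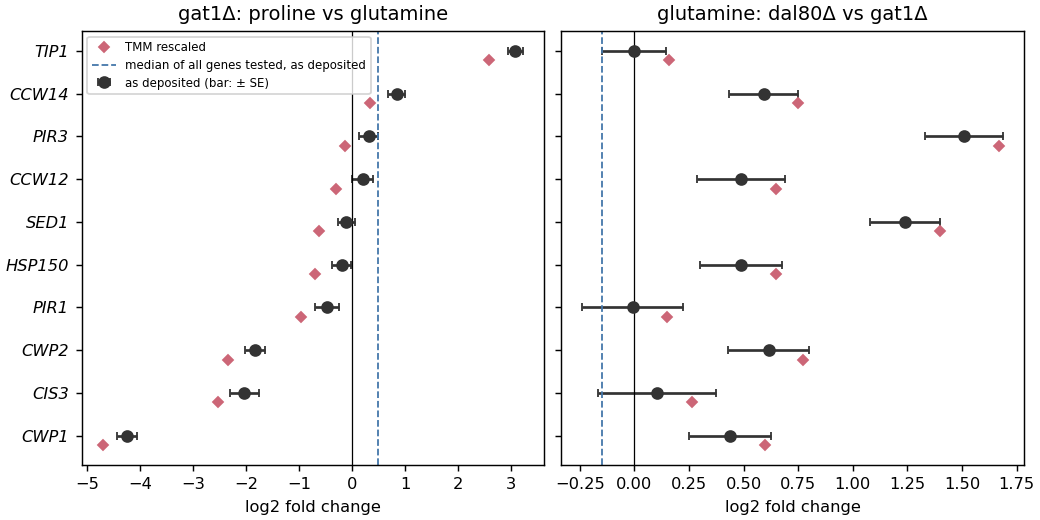
Log2 fold change of each gene for gat1Δ proline against glutamine (left) and dal80Δ against gat1Δ in glutamine (right); black points are values as deposited with bars of ± 1 SE, red diamonds the values after TMM rescaling, and the dashed line the median of all genes tested. CWP1 lies at -4.24 and TIP1 at 3.08 on the left, and SED1 (1.24) and PIR3 (1.51) lie furthest right in the other panel.

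The machinery that makes, sugar-coats and anchors mannoproteins was read from lists of other genes, from which the 10 members were left out. These lists and those below were chosen with earlier results of these data known. Their counts and adjusted p values are therefore given as a description. Genes of protein mannosylation and of GPI anchor synthesis fell in proline more often than they rose. Of 32 mannosylation genes 18 fell, 3 rose and 11 did not pass (median log2 -0.45, all genes 0.50), where 15.1% of all genes fell. Among them were PMI40 (-2.74 ± 0.17, adjusted p = 3.4e-06) and SEC53 (-1.81 ± 0.16), for successive steps towards the mannose donor, and PMT3 (-2.24 ± 0.15), for attaching the first mannose to proteins. KTR2 (1.09 ± 0.15), for a mannosyltransferase of the Golgi, rose. The summed level of the list was 107669 and 115326 scaled reads in gat1Δ glutamine, 48401 and 60247 in proline, and 105181 and 108745 in dal80Δ.

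Of 31 GPI anchor genes 17 fell, 5 rose and 9 did not pass (median log2 -0.45), where 15.1% of all genes fell. MCD4, for adding phosphoethanolamine to the anchor and the gene that follows PIR1 on chromosome 11, fell most clearly (-2.85 ± 0.16, adjusted p = 2.38e-06). GWT1 (-1.58 ± 0.16), for acylation of the anchor precursor, and DCW1 (-1.29 ± 0.14), thought to help transfer GPI proteins to glucan, fell too. GPI15 (0.79 ± 0.16), for the first step of anchor synthesis, rose. After TMM rescaling 25 of 32 mannosylation genes and 25 of 31 GPI genes were lower, against 29.8% of all genes. In these lists 1 and 0 were then higher, against 33.8% of all genes. Of 8 proteases that process wall proteins 3 fell, the yapsin genes MKC7 (-1.06 ± 0.14), YPS6 (-1.02 ± 0.14) and YPS1 (-0.65 ± 0.14). KEX2 (0.72 ± 0.16), for the Golgi protease that cleaves PIR precursors, was 1 of 2 that rose, a call that ended after TMM rescaling (0.23). For all genes the shares were 15.1% lower and 56.5% higher. After TMM rescaling 5 of the 8 proteases were lower and none higher, against 29.8% and 33.8% of all genes.

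Most of the other wall protein genes listed did not share the direction of CWP1. Where 56.5% of all genes rose and 15.1% fell, 17 of 23 further GPI-linked and PIR wall protein genes tested rose. Another 4 fell and 2 did not pass, with a median log2 of 0.96 over the 23. AGA1 (3.79 ± 0.16), the anchoring subunit of a-agglutinin, FIG2 (3.01 ± 0.14), a mating-induced adhesin, and TIR2 (2.03 ± 0.14), a relative of TIP1, had the smallest adjusted p. Mating-type markers also moved in proline, as given below, and their part in AGA1 and FIG2 was not tested. YPS3 (-2.06 ± 0.19), for a yapsin, fell most. After TMM rescaling 14 were higher and 6 lower, against 33.8% and 29.8% of all genes.

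Genes for the glucan and chitin to which mannoproteins are bound were divided. As deposited, 56.5% of all genes rose and 15.1% fell. Of 22 glucan remodelling enzymes 8 rose and 7 fell, among the latter GAS3 (-2.35 ± 0.19) and GAS1 (-2.02 ± 0.20), of the glucan-elongating Gas family, and among the former DSE4 (1.48 ± 0.18), a daughter-specific glucanase. Of 17 beta-glucan synthesis genes 6 rose, such as SMI1 (1.12 ± 0.13), a regulator of glucan synthesis, and 4 fell, such as FKS1 (-1.36 ± 0.17), for a catalytic subunit of glucan synthase, and KEG1 (-1.36 ± 0.15), an endoplasmic reticulum protein gene. Both balances turned after TMM rescaling, to 4 higher and 10 lower and to 2 higher and 7 lower. The shares of all genes were then 33.8% higher and 29.8% lower. Of 15 chitin genes tested 7 fell, including CHS2 (-1.08 ± 0.20), for the septum chitin synthase, and GFA1 (-0.80 ± 0.16), for the entry to glucosamine synthesis, and 3 rose, among them SKT5 (1.18 ± 0.16), an activator of chitin synthase; the TMM counts were 10 lower and 1 higher.

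The cell wall integrity pathway, a kinase cascade that senses wall stress, was read in 22 signalling genes, of which 15 rose and 2 fell, where 56.5% and 15.1% of all genes did. After TMM rescaling 7 were higher and 3 lower, against 33.8% and 29.8%, so that the share of higher genes was near that of all genes. MSG5 (1.36 ± 0.13) and PTP3 (1.30 ± 0.13), for phosphatases that act on kinases, and the sensor gene MTL1 (1.52 ± 0.18) rose, while SLT2 (-0.59 ± 0.15), the kinase of the pathway, fell. Of 18 listed targets of its factor Rlm1 other than the members, 9 fell and 6 rose (11 and 4 after TMM rescaling). SVS1 (-1.40 ± 0.13), for a wall protein, and YPS3 fell, while MCH5 (5.13 ± 0.13), for riboflavin uptake, rose. Members with the Rlm1-type motif did not move alike either: CWP1 was lower, CCW14 higher, and PIR3 (0.31) and HSP150 (-0.20) differed less. Of 23 regulators named for wall genes 17 rose and HOG1 (-0.45 ± 0.15) alone fell, where 56.5% of all genes rose and 15.1% fell, with ROX1 (2.75 ± 0.19), the repressor of hypoxic genes, PHD1 (2.36 ± 0.20) and TEC1 (1.87 ± 0.15), of filamentous growth, leading. After TMM rescaling 12 were higher and 2 lower, against 33.8% and 29.8% of all genes.

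**Figure D4:**
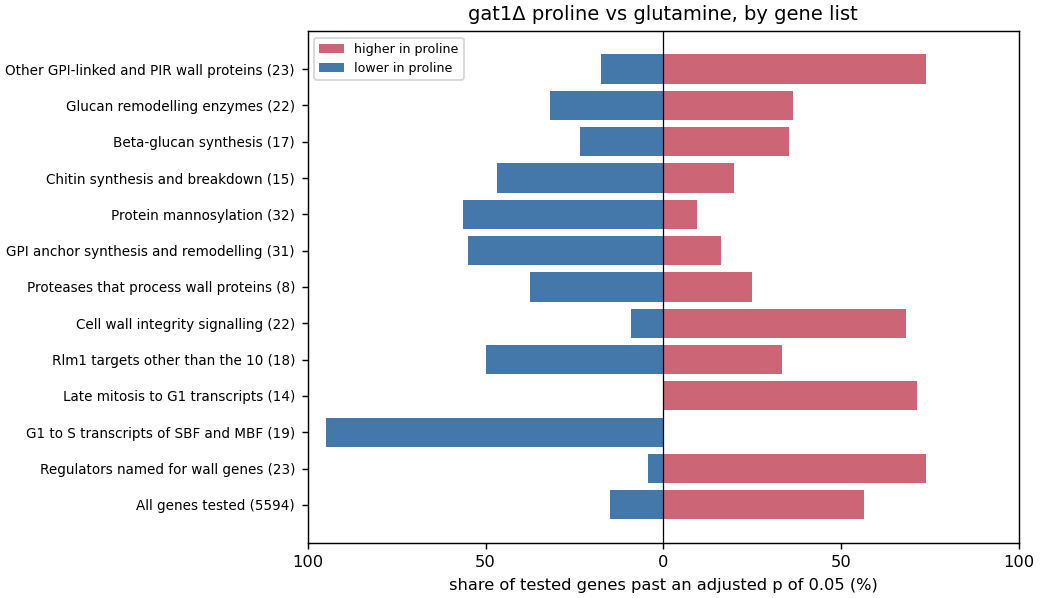
Share (%) of the tested genes of each list that passed an adjusted p of 0.05 in gat1Δ proline against glutamine, to the right where higher and to the left where lower; the number tested is in brackets, and the last bar holds all 5594 genes. Mannosylation (18 of 32) and GPI anchor genes (17 of 31) passed mostly as lower, as did 18 of 19 G1/S genes. Of all genes 15.1% passed as lower.

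Markers of cell cycle stage moved with the medium. Of 19 transcripts of the G1/S factors SBF and MBF 18 fell, none rose and 1 did not pass, where 15.1% of all genes fell. Examples were CLN2 (-2.63 ± 0.13), a G1 cyclin gene, TOS4 (-2.72 ± 0.14) and HO (-2.88 ± 0.16), the mating-type switching endonuclease gene. After TMM rescaling all 19 transcripts were lower, against 29.8% of all genes. Their summed level was 27006 and 28086 scaled reads in gat1Δ glutamine, 4374 and 6674 in proline, and 23609 and 21721 in dal80Δ. Of 14 late mitotic and early G1 transcripts 10 rose and none fell, where 56.5% of all genes rose and 15.1% fell. After TMM rescaling 8 of the 14 were higher and 1 lower, against 33.8% and 29.8% of all genes. FAR1 (1.82 ± 0.12), an inhibitor gene of G1 cyclins and the gene just upstream of CIS3, was among those that rose. Their summed level was 9513 and 9216, 21712 and 23163, and 8845 and 8353 scaled reads in the same groups. No listed gene of these sets was at 0 in both libraries of a group. The part of cell cycle stage in the levels of the 10 genes was not tested.

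Mating-type markers moved too. All 7 a-specific genes rose in proline, where 56.5% of all genes rose. After TMM rescaling all 7 were still higher, against 33.8% of all genes. The summed level of the 7 was 193 and 171 scaled reads in gat1Δ glutamine, 6517 and 4922 in proline, and 27468 and 25721 in dal80Δ. Of the 4 α-specific genes 2 rose in proline, a share near that of all genes. The 2 were MF(ALPHA)1 (1.89 ± 0.17) and STE3 (0.50 ± 0.18), and after TMM rescaling MF(ALPHA)1 alone of the 4 was higher. These 4 summed to 36055 and 36270, 84262 and 89581, and 448 and 433 scaled reads in the same groups, and none of the 11 was at 0 in both libraries of a group. Their part in the results was not tested for proline. Between the strains, mating type and deletion cannot be told apart.

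The second comparison set dal80Δ against gat1Δ in glutamine. It uses the same gat1Δ glutamine libraries as the first. SED1 and PIR3 were higher in dal80Δ, and most other members were slightly higher. In the same fit 2 of the 10 passed as higher and none as lower, where 3.97% of all genes passed as higher and 1.48% as lower, and nothing is read from these counts. Densities of 8 of the 10 did not overlap, all higher in dal80Δ, where 17.4% of all genes were higher without overlap. The median log2 fold change was 0.49 over the 10 and -0.15 over all genes tested (0.65 and -0.01 after TMM rescaling).

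SED1 stood at 40.6 and 38.1 scaled reads per base in dal80Δ against 19.0 and 14.6 in gat1Δ, 2.34-fold higher (log2 1.24 ± 0.16). PIR3 stood at 0.465 and 0.613 against 0.197 and 0.151, 3.09-fold higher (log2 1.51 ± 0.18), with 1026 and 1128 reads behind the dal80Δ values. The libraries of both genes were well apart. The dal80Δ densities of CIS3, 9.98 and 10.1, lay just above the 9.73 and 8.94 of gat1Δ (log2 0.10 ± 0.27).

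CWP2 (log2 0.61 ± 0.19), CCW14 (0.59 ± 0.16), CCW12 (0.49 ± 0.20), HSP150 (0.49 ± 0.19) and CWP1 (0.44 ± 0.19) were higher in both dal80Δ libraries than in either gat1Δ library. After TMM rescaling 3 of the 10 passed as higher, against 6.19% of all genes, and nothing is read from this count either. HSP150 stood at 32.0 and 28.3 in dal80Δ. The values of PIR1, 12.8 and 11.6 in dal80Δ, overlapped those of gat1Δ (log2 -0.0077 ± 0.23), and so did those of TIP1 (log2 -0.0013 ± 0.15). With 2 libraries a group, changes of this size are hard to tell from the spread between cultures.

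Between the strains, 13 of 232 listed genes outside the mating-type lists passed, 8 higher and 5 lower in dal80Δ. This is close to the 5.45% of all genes that passed in either direction, and the lists hold cell cycle genes and general regulators beside wall genes. SPI1 (2.41 ± 0.17, limma adjusted p = 4.97e-05), for a GPI wall protein related to Sed1, and NCA3 (1.87 ± 0.15, limma adjusted p = 0.000109), of the SUN family of wall enzymes, rose most. The others that were higher were YPS6 (0.97 ± 0.14), BAG7 (0.87 ± 0.14), SDP1 (0.86 ± 0.20), for a stress-induced phosphatase of the integrity pathway, MSN4 (0.73 ± 0.13), for a general stress activator, CLN3 (0.59 ± 0.13), for a G1 cyclin, and SKN1 (0.57 ± 0.13), of glucan synthesis. TIR1 (-1.31 ± 0.20), a relative of TIP1, and the G1/S genes CLB6 (-0.85 ± 0.19), HO (-0.78 ± 0.16), POL1 (-0.58 ± 0.14) and TOS4 (-0.57 ± 0.14), the last named after its value was seen, were lower. The calls of POL1 (-0.45) and TOS4 (-0.42) ended after TMM rescaling.

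The genes with the pattern most like that of CWP1 were found by the root mean square distance between mean-centred log2 densities over the 6 libraries, among 5217 genes with a mean of at least 5 CPM (reads scaled to a common total). The nearest was MUP1 (0.22), a methionine permease gene, followed by HXK1 (0.44), for a hexokinase, RNR1 (0.50), for ribonucleotide reductase, MET3 (0.52), for sulfate use, and YCL042W (0.52), an open reading frame. For CWP2 the nearest was UGP1 (0.07), which makes the sugar donor for glucan, for CIS3 it was GAS1 (0.15), for TIP1 the malate synthase gene MLS1 (0.13), and for SED1 the chaperone gene SSE2 (0.11). The nearest to HSP150 was SML1 (0.05), to CCW14 YFL054C (0.05), to CCW12 YLR177W (0.09), to PIR1 IRC8 (0.10) and to PIR3 TFS1 (0.13). None of these nearest genes was itself among the 10, and SED1 was the 5th nearest to PIR3 (0.24). A group contrast sets most of such a likeness when there are 3 groups.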

How the data were processed

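Total RNA was depleted of ribosomal RNA and made into stranded libraries with paired reads of 50 nt, per the labels' protocols. TopHat and build R64 are named in the submitters' processing notes. How reads were counted, with what use of strand, and what was done with reads of several matches are not stated in any source used here. The deposited table gives, per the file headers, a normalized density signal and a read count for 6192 features in each library. The signal equalled scaled count over length, and the deposited counts were whole multiples of 1 step per library (100% within 0.01 reads), so that whole reads could be recovered. Group values, in 6 more columns, were left out. Genes were kept if 2 or more libraries held 10 or more scaled reads (5594 genes), and their densities were tested as log2(density + 0.0229) with limma 3.58.1 in R 4.3.3, with all 6 libraries in the fit, an intensity trend and Benjamini-Hochberg adjustment over all genes (threshold 0.05). The labels call the replicates biological. An exact permutation test on 2 against 2 libraries cannot go below p = 0.333.

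The members and the 15 gene lists were chosen with earlier results of these data known. Named list genes were, per list, the 3 of lowest adjusted p and the one that changed most against the majority, with the neighbours of members and the nearest profiles. Of the listed names CCW22 was not found. One list and some sequence results are not reported here. Alternatives were the low-value filter, the pseudocount, TMM and RLE scaling, edgeR 4.0.16 and DESeq2 1.42.0 on recovered reads, a replicate block and each library left out. The fit was tested on simulated data. Upstream windows and gene positions came from RefSeq R64, where 5777 of 5809 shared identifiers had the same start and end.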

Additional observations from a re-analysis of the deposited data

How the results depend on the processing

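With 2 libraries a group, counts for dal80Δ against gat1Δ depend on the test. Of all genes 305 passed, but 520 with DESeq2 and 111 to 405 with a library left out (178 without gat1Δ glutamine replicate 2, 111 and 119 without dal80Δ replicates 1 and 2). Of the 10 members 2 passed, but 6 with DESeq2 and 2 to 5 with a library left out, the 5 without either proline library, where 400 and 405 of all genes passed. Of the listed genes 24 passed, and 14 to 30 with a library left out (15 and 14 without dal80Δ replicates 1 and 2). For proline against glutamine the counts stayed within 1.5 times of the main ones. With all 6 libraries, 3390 to 4029 of the 5594 genes tested passed (main 4006). So did 5 to 7 of the members (main 5) and 172 to 182 listed genes (main 182). The split of calls turned on the scaling: TMM gave 33.8% higher and 29.8% lower, against 56.5% and 15.1%. The log2 fold change of STE3 in proline, 0.50, turned to -0.0052 with TMM, -0.057 with RLE and -0.043 with DESeq2; the cause was not tested beyond the shift of scaling. With the replicate number as a block 3886 and 208 genes, 5 and 2 members and 176 and 19 listed genes passed. Deviations of same-numbered libraries correlated at 0.01, -0.25 and -0.08 across genes. None of these values shows a pairing by number, but 2 libraries a group cannot settle whether the numbers pair the libraries. The crossed pairing of dal80Δ, added after seeing the data, gave 409 genes, 3 members and 28 listed genes.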
